A study of Capra hircus with 2 samples.

Results

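PROS1 and CD47 encode signals that act at opposite ends of the removal of dying cells. They were chosen by name, not by a measured value, though earlier results of these data were known. They are 2 of the 154 complete gene rows in the table of goat granulosa cells. Both were measured in every cell of both libraries.

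When a cell dies by apoptosis, phosphatidylserine appears on its outer surface. Protein S, the secreted product of PROS1, binds that lipid at one end and receptors of the TYRO3, AXL and MERTK family at the other, so that it bridges the dying cell to the cell that engulfs it; it is also a cofactor of the anticoagulant protein C. CD47 is a surface protein of living cells that binds SIRPA on phagocytes and restrains engulfment. Most ovarian follicles do not ovulate, and their granulosa cells die by apoptosis and are cleared by neighbouring granulosa cells and by macrophages.

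The cells came from ovaries of Ji'ning grey goats and were labelled as granulosa cells, the somatic cells around the oocyte. The high fertility group held goats with more than 3 kids per birth and the low fertility group goats with fewer than 2, with no treatment named in the labels. Each group is 1 library made with a droplet kit that tags the 3' end of each transcript and counts transcripts by unique molecular identifiers (UMIs). Neither the number nor the age of the goats behind a library is stated in the labels.

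The library of the high fertility group (HF below) held 7106 cells and 63769786 UMIs, with a median of 7214.5 UMIs per cell. That of the low fertility group (LF below) held 3345 cells and 45674506 UMIs, with a median of 11080 UMIs per cell. Since each group is a single library, no test was made, and a difference between fertility groups cannot be told apart from one between goats, dissections or preparations. All intervals are 95% intervals that cover counting error within a library only. Those of levels and of ratios of UMIs treat each UMI as independent. They leave out uneven spread over cells and are too narrow for rows that are spread unevenly. The libraries shared 27 cell barcodes, and without those cells the level ratios and the co-detection of PROS1 and CD47 moved by less than their counting intervals. None of the 10 granulosa markers listed for the check, FSHR and CYP19A1 among them, was among the rows analysed here, so the label of the cells could not be checked. Doublets were not called, since that needs genes outside these rows.

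PROS1 was among the more abundant rows in both libraries and stood higher in HF. It held 5187 UMIs in HF, which is 81.3 per 1000000 UMIs (CPM, interval 79.1 to 83.6). The LF library held 2835 UMIs, or 62.1 CPM (59.8 to 64.4). The ratio high over low was 1.31 (1.252 to 1.37), and the intervals of the levels did not overlap. Ordered by level, PROS1 was number 11 of 154 rows in HF and number 15 in LF. UMIs tag 1 end of a transcript and need no correction for length, but a row's level also depends on how well the annotation covers that end. BTG3, the next row down in HF at 79.1 CPM, and TOMM70 and IFT57, at 62.2 and 61.9 CPM the rows on either side in LF, lay within counting error of PROS1. CMSS1, the next row up in HF at 88.6 CPM, did not.

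CD47 was a low row in both libraries and stood higher in LF. It held 429 UMIs or 6.73 CPM (6.11 to 7.40) in HF. Within LF it held 407 UMIs or 8.91 CPM (8.07 to 9.82). The ratio low over high was 1.32 (1.15 to 1.52). CD47 was number 54 of 154 rows in HF and number 44 in LF, and its nearest rows in that order lay within counting error of it.

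Neither gene differed by 1.5-fold. Of the 59 rows with at least 5 CPM in both libraries, 8.47% were past 1.5-fold towards HF and 3.39% towards LF. The median ratio high over low of these 59 rows was 1.12, with 41 rows above 1. PROS1 lay above that median, with 11 rows higher still. CD47, at a ratio high over low of 0.755, lay below it, with 5 rows lower still. Divided by the median ratio of the 18 rows of at least 50 CPM, which was 1.12 or 0.16 on the log2 scale, PROS1 stood at 1.17 and CD47 at 0.674. Left without the cells above 15000 UMIs, the PROS1 ratio was 1.174 and the CD47 ratio 0.853 (0.707 to 1.03), an interval that holds 1. When cells holding SAMSN1, which encodes an adaptor protein of blood cells, were left out, the CD47 ratio was 0.852 (0.730 to 0.995) and the PROS1 ratio 1.27 (1.21 to 1.33).

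PROS1 kept nearly the same level at every cell depth in HF. Over 8 depth bins, from below 2500 to above 30000 UMIs per cell, it lay between 79.1 and 92.4 CPM in the 7 bins below 30000 UMIs and at 70.0 CPM (63.6 to 76.9) above. In LF it varied more, from 48.1 CPM (43.2 to 53.4) in cells of 20000 to 30000 UMIs to 84.0 CPM (75.8 to 92.8) in cells of 7500 to 10000 UMIs. In that last bin the libraries were level, at 83.9 CPM (78.9 to 89.3) in HF. PROS1 was higher in HF in 7 of the 8 bins.

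CD47 had its lowest level in the deepest cells of the HF library. It stood at 8.37 CPM (6.15 to 11.1) in cells of 2500 to 5000 UMIs and at 3.53 CPM (2.21 to 5.35) in cells above 30000 UMIs. The LF levels lay between 6.84 and 12.7 CPM, and their intervals overlapped in all bins. CD47 was higher in LF in 7 of the 8 bins, the exception being cells of 2500 to 5000 UMIs, where only 8 UMIs were counted in LF.

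The level in cells above 15000 UMIs was also set over that in cells below 5000 UMIs. For PROS1 this ratio was 0.971 (0.880 to 1.07) in HF and 0.945 (0.770 to 1.17) in LF. For CD47 it was 0.640 (0.453 to 0.914) in HF and 1.06 (0.620 to 1.97) in LF. The HF interval held 1 with bounds of 2500 and 20000 UMIs, at 0.814 (0.301 to 3.09), and with the shallowest and deepest 10% of cells, at 0.791 (0.422 to 1.64). With the same changes the LF ratio was 0.674 (0.303 to 1.86) and 0.714 (0.350 to 1.70), and without SAMSN1 cells 0.730 (0.422 to 1.37), so its side of 1 is not settled. The median of the same ratio over the 59 rows was 0.862 in HF and 0.875 in LF, so a lower level in deep cells was common among these rows. In the HF library 11 of the 59 rows had a lower ratio than CD47 and 38 a lower ratio than PROS1. In the LF library these numbers were 47 for CD47 and 35 for PROS1.

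**Figure D1:**
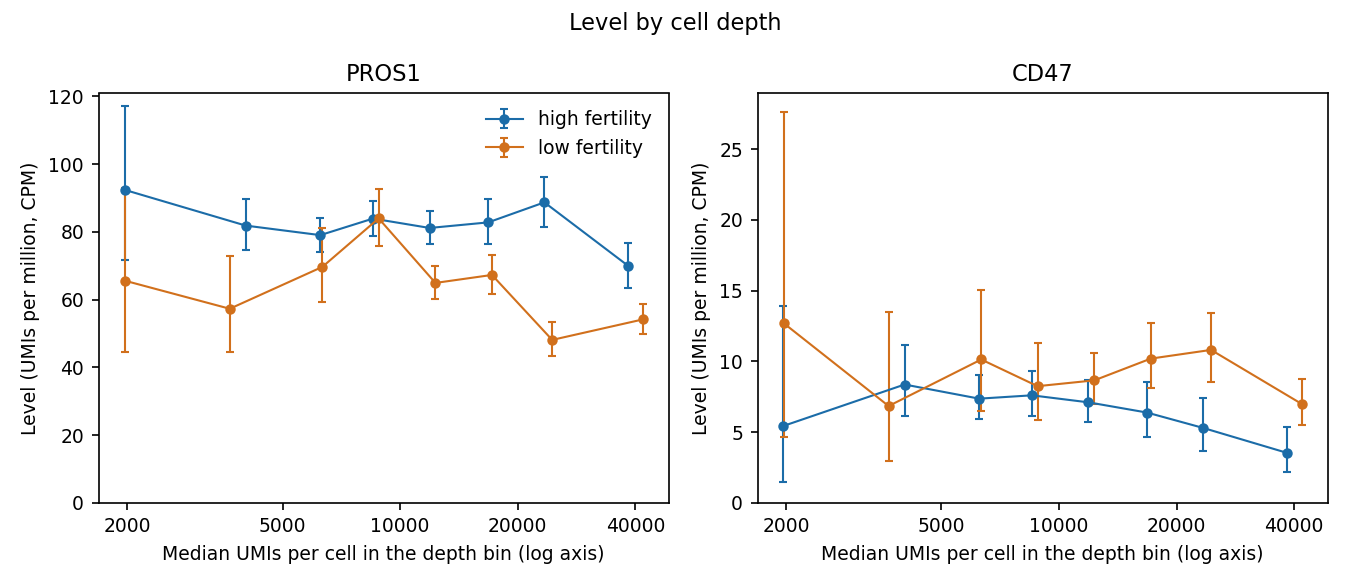
Level of PROS1 (left) and CD47 (right) in CPM against the median UMIs per cell of 8 depth bins (log axis), in the high (blue) and low (orange) fertility library, with 95% Poisson intervals. PROS1 lies between 48.1 and 92.4 CPM and CD47 between 3.53 and 12.7 CPM, and the libraries meet for PROS1 in cells of 7500 to 10000 UMIs.

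Detection of both genes per cell went with depth. PROS1 was detected in 36.7% of the HF cells (35.5% to 37.8%) and 39.2% of the LF cells (37.6% to 40.9%). After each cell was reduced to 2000 UMIs, which left out 209 and 132 shallower cells, the expected shares were 13.6% and 11.2%. The larger unreduced share in LF therefore goes against both the level and the reduced share, and no order is read from it. CD47 was detected in 5.76% (5.23% to 6.32%) and 10.3% (9.30% to 11.4%) of the cells, and in 1.45% and 1.71% after reduction. In the shallowest bin, below 2500 UMIs, PROS1 was detected in 14.0% of the HF and 9.76% of the LF cells, and above 30000 UMIs in 83.9% and 78.7%. No cell type that should lack these genes could be named, so the background share from free RNA could not be measured. Among cells with a UMI of SAMSN1, of much the same depth as the others (medians of 7411 against 7202 UMIs in HF and 12071.5 against 10928 in LF), PROS1 was detected in 8.58% (6.43% to 11.2%) of 583 and 8.47% (5.83% to 11.8%) of 366 cells, while CD47 was detected in 9.61% (7.34% to 12.3%) and 21.0% (17.0% to 25.6%).

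PROS1 was spread unevenly over cells. If every cell held PROS1 in proportion to its depth, 53.6% of the HF and 50.5% of the LF cells would have had no UMI of it. In fact 63.3% and 60.8% had none. At the other end, 84 HF cells held 6 or more UMIs where 28.5 were expected, and 63 LF cells where 26.9 were expected. The highest count in a cell was 18 in HF and 10 in LF. The variance around the depth-proportional level was 2.01 times the Poisson variance in HF and 2.07 times in LF. Over the 59 rows the medians of this ratio were 1.23 and 1.36. Because this ratio can grow with a row's level, PROS1 was set beside the 10 rows nearest to it in UMIs: all 10 had a smaller ratio in HF, and 5 of 10 in LF.

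CD47 was spread close to evenly in HF. There 390 cells held 1 UMI and 18 held 2, where 390.2 and 17.9 were expected from depth alone, and the variance was 1.03 times the Poisson variance. Within LF 294 cells held 1 UMI where 333.02 were expected and 43 held 2 where 31.1 were expected. The variance ratio there was 1.22, and 1.04 without the cells above 15000 UMIs. A gene at this level leaves little room to see unevenness, since few cells can hold more than 1 UMI.

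**Figure D2:**
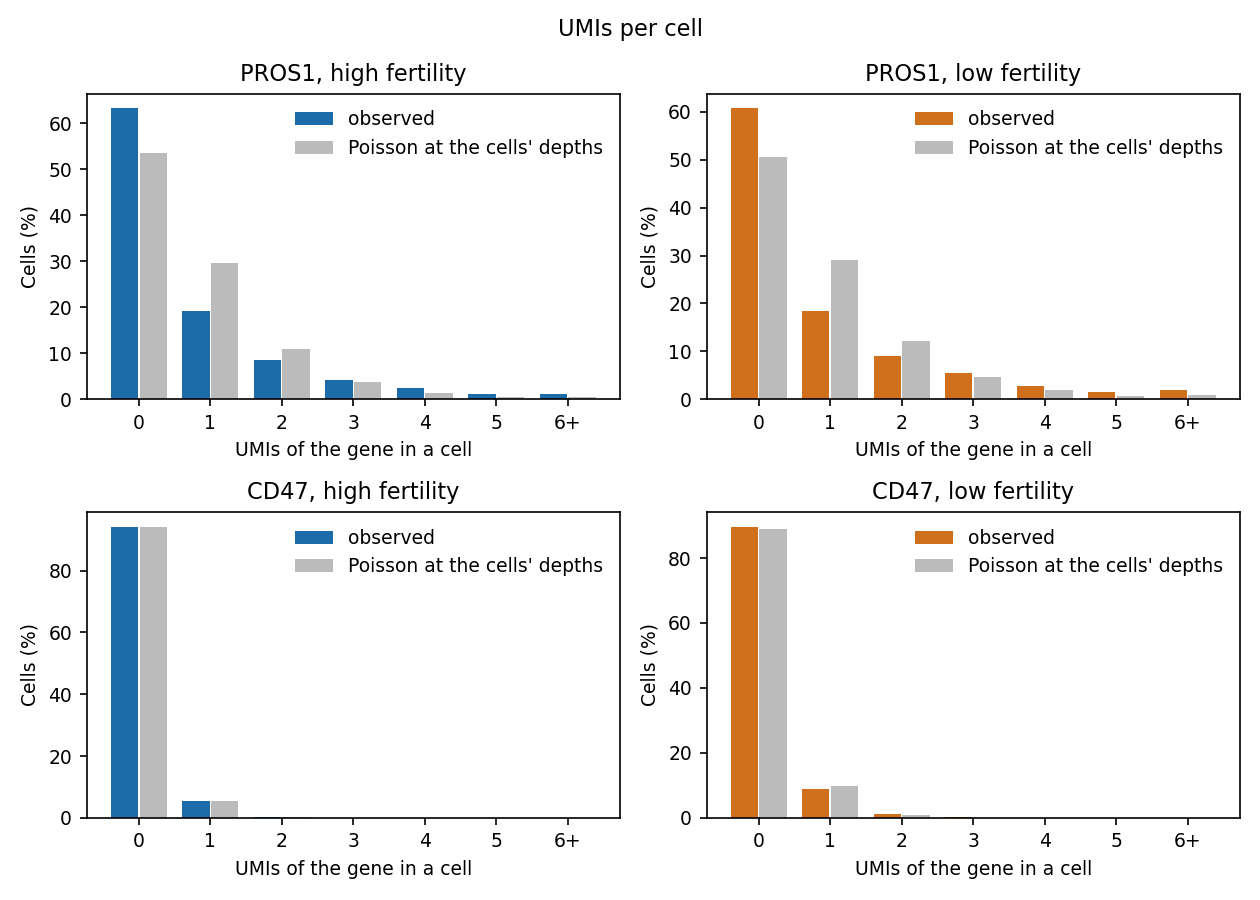
Percent of cells by the number of UMIs of PROS1 (top) and CD47 (bottom) in the high (left, blue) and low (right, orange) fertility library, beside the percent expected if UMIs followed a Poisson count at each cell's depth (grey). PROS1 has more cells at 0 and at 4 or more than expected, while CD47 follows the expectation closely in the high fertility library.

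Cells with a UMI of both genes were about as many as the separate shares at each depth would give. In the HF library 183 cells held both, against 180.4 expected within 20 depth bins of equal cell number, a ratio of 1.01 (0.873 to 1.17). In LF 144 cells held both, against 167.4 expected, a ratio of 0.860 (0.726 to 1.01). Both intervals hold 1, and the expected number is taken as fixed in them. Put as shares, 44.7% of the 409 CD47 cells of the HF library also held PROS1 (39.9% to 49.7%), where 44.1% were expected at their depth. Among the 345 CD47 cells of LF the share was 41.7% (36.5% to 47.1%), where 48.5% were expected. Among all 1711 pairs of the 59 rows the median ratio was 1.02 in HF and 1.01 in LF. The PROS1 and CD47 pair stood above 47.0% of these pairs in HF and above 7.89% in LF. Left without the cells with SAMSN1, the ratio was 1.07 (0.916 to 1.24) in HF and 0.982 (0.825 to 1.16) in LF.

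The co-detection ratio was also computed by depth. In HF 19 cells below 5000 UMIs held both where 11.05 were expected, a ratio of 1.72 (1.04 to 2.69). In cells of 15000 UMIs or more 48 cells held both where 62.5 were expected, a ratio of 0.769 (0.567 to 1.02). The ratios between these bands were 1.16 (0.913 to 1.46) for 5000 to 10000 UMIs and 0.989 (0.716 to 1.33) for 10000 to 15000 UMIs. Within LF no cell below 5000 UMIs held both where 1.63 were expected, and the interval of that ratio reaches 2.26. The ratio was 0.882 (0.714 to 1.08) in cells of 15000 UMIs or more.

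Counted in UMIs instead of cells, CD47 in cells with PROS1 stood at 0.829 (0.657 to 1.05) of the level in cells without PROS1 at matched depth in HF. In LF it stood at 0.615 (0.481 to 0.789). Seen from the other side, PROS1 in cells with CD47 stood at 1.07 (0.962 to 1.18) of the level in cells without CD47 in HF and at 0.901 (0.803 to 1.01) in LF. Of these 4 intervals only that of CD47 in PROS1 cells of the LF library leaves out 1.

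The other rows were then compared between cells with and without each gene. UMIs observed in cells with PROS1 were divided by those expected from cells without it in the same 20 depth bins, and a row was counted when it was at least 25% higher or at least 20% lower in both libraries with intervals that leave out 1. Of the 58 other rows, 12 were higher in cells with PROS1 (20.7%) and 9 lower (15.5%). With each of the 59 rows in turn in the place of PROS1, the median number counted was 5 in both directions together, and 3 rows had more than the 21 of PROS1, namely SAMSN1, TIAM1 and ENSCHIG00000015902. The median ratio of the 58 rows was 1.02 in HF and 1.00 in LF.

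FILIP1L, named as a filamin A interacting protein 1 like gene, had the highest ratios in cells with PROS1. Cells with PROS1 held 1055 UMIs of it in HF where 342.6 were expected, a ratio of 3.08 (2.67 to 3.57). Those of LF held 263 where 84.5 were expected, a ratio of 3.11 (2.21 to 4.50). CD200 followed, a surface protein whose receptor on myeloid cells dampens their activity, at 2.07 (1.79 to 2.41) and 2.57 (1.99 to 3.34). CD200 was on none of the lists drawn up here and is a further inhibitory surface signal among these rows. ADAMTS1, a secreted protease that cleaves versican, stood at 1.97 (1.65 to 2.37) in HF and 2.64 (1.92 to 3.71) in LF. Without the cells above 15000 UMIs its ratio in LF was 1.29 (0.894 to 1.86). The transmembrane protein gene DCBLD2 stood at 2.21 (1.88 to 2.60) and 1.93 (1.47 to 2.57). Set the other way, PROS1 in cells with FILIP1L stood at 1.82 of the matched level in HF and 1.53 in LF. It stood at 1.46 and 1.45 in cells with CD200, 1.31 and 1.33 with ADAMTS1, and 1.58 and 1.42 with DCBLD2. With IFT57 it stood at 1.54 and 1.65, in LF above the value with FILIP1L.

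The other named rows higher with PROS1 had smaller ratios in cells with PROS1. IFT57, a subunit of the intraflagellar transport complex, stood at 1.53 (1.42 to 1.65) in HF and 1.67 (1.504 to 1.86) in LF. CBLB, a ubiquitin ligase that restrains receptor signalling, stood at 1.57 (1.41 to 1.74) and 1.58 (1.36 to 1.83), and the HMG-box gene BBX at 1.44 (1.37 to 1.53) and 1.60 (1.47 to 1.74). BTG3, CCDC80, CMSS1 and NXPE3 were also among the 12. After cells with a UMI of SAMSN1 were left out, 10 rows were still counted as higher, and CMSS1 and NXPE3 were not. There CBLB stood at 1.398 in HF and 1.342 in LF, IFT57 at 1.404 and 1.499, BBX at 1.338 and 1.455, and DCBLD2 at 1.843 and 1.640. Of the 12, CBLB, CCDC80, DCBLD2 and NXPE3 were not counted among cells below 7500 UMIs. CBLB stood at 1.18 (0.980 to 1.41) in those of HF, and DCBLD2 at 1.33 (0.608 to 2.74) in those of LF.

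SAMSN1 and ENSCHIG00000015902, a row with no symbol in the table, were nearly absent from cells with PROS1. SAMSN1 held 68 UMIs in PROS1 cells of the HF library where 621.6 were expected, a ratio of 0.109 (0.0837 to 0.141). Within LF it held 42 where 522.4 were expected, a ratio of 0.0804 (0.0569 to 0.111). ENSCHIG00000015902 stood at 0.0877 (0.0566 to 0.131) and 0.0921 (0.0612 to 0.134). TIAM1, an exchange factor that activates RAC1, stood at 0.282 (0.213 to 0.371) and 0.325 (0.228 to 0.457). Among cells below 7500 UMIs SAMSN1 stood at 0.116 (0.0694 to 0.184) in HF and 0.0544 (0.00651 to 0.201) in LF, and TIAM1 at 0.399 (0.224 to 0.668) and 0.146 (0.00351 to 0.913).

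The other rows lower with PROS1 had smaller deficits. TMEM50B stood at 0.519 (0.433 to 0.623) in HF and 0.421 (0.334 to 0.529) in LF, and ENSCHIG00000012911, which has no symbol, at 0.561 (0.502 to 0.626) and 0.513 (0.458 to 0.574). ATP6V1A, the catalytic subunit of the proton pump of lysosomes, stood at 0.616 (0.491 to 0.773) and 0.598 (0.472 to 0.759). The adhesion molecule gene ALCAM stood at 0.673 (0.574 to 0.789) and 0.464 (0.350 to 0.613), and IFNGR2, which encodes a subunit of the receptor for interferon gamma, at 0.724 (0.663 to 0.791) and 0.519 (0.470 to 0.574). CGGBP1 was the ninth. Without the cells with a UMI of SAMSN1, ATP6V1A at 0.743 and 0.911, IFNGR2 at 0.880 and 0.668 and CGGBP1 were no longer counted. TIAM1 at 0.370 and 0.343 and ENSCHIG00000015902 at 0.0960 and 0.0929 were still counted. Set the other way, the deficits were smaller, most of all in HF. There PROS1 stood at 0.901 in cells with TMEM50B, 0.919 with ENSCHIG00000012911, 0.944 with ATP6V1A, 0.935 with ALCAM and 0.923 with IFNGR2. The intervals for ATP6V1A (0.851 to 1.04) and ALCAM (0.857 to 1.02) held 1. The LF values were 0.657, 0.827, 0.825, 0.725 and 0.814 in that order.

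Cells with CD47 showed higher levels of rows that were low in cells with PROS1. Of 58 other rows 6 were higher in cells with CD47 in both libraries (10.3%) and 0 lower (0.0%). A total of 6 is near the median of 5 over all 59 rows set in that place, of which 30 had fewer and 27 more, so the number itself does not set CD47 apart. The 2 sets of comparisons use the same cells, so they are given side by side only. ENSCHIG00000015902 held 54 UMIs in CD47 cells of the HF library where 24.5 were expected, a ratio of 2.21 (1.62 to 2.96), and 121 in those of LF where 38.7 were expected, a ratio of 3.13 (2.48 to 3.92). SAMSN1 held 99 where 53.9 were expected, a ratio of 1.84 (1.47 to 2.27), and 172 where 61.7 were expected, a ratio of 2.79 (2.31 to 3.36). TIAM1 stood at 2.198 (1.61 to 2.95) and 1.99 (1.42 to 2.75). TMEM50B stood at 1.81 (1.43 to 2.26) and 2.16 (1.73 to 2.69), ALCAM at 1.62 (1.31 to 1.99) and 2.31 (1.75 to 3.02), and ENSCHIG00000012911 at 1.35 (1.15 to 1.57) and 1.93 (1.72 to 2.17).

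The rows counted with CD47 changed with the cells that were kept, and whether depth or the smaller number of cells lay behind this was not tested. Among cells below 7500 UMIs, where only 137 HF and 34 LF cells held CD47, none of the 6 was counted, and SAMSN1 stood at 1.05 (0.626 to 1.66) and 1.29 (0.539 to 2.68). Without the cells above 15000 UMIs 3 were counted, with SAMSN1 at 1.74 (1.35 to 2.22) and 2.10 (1.51 to 2.86), TIAM1 at 1.85 and 2.26 and TMEM50B at 1.60 and 1.86. Without the cells with SAMSN1 4 were counted: ENSCHIG00000015902, TIAM1, TMEM50B and ALCAM.

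The rows that went with PROS1 were not counted with CD47 in either direction. In cells with CD47 of the LF library CD200 stood at 0.543 (0.397 to 0.728), FILIP1L at 0.672 (0.459 to 0.956) and DCBLD2 at 0.701 (0.525 to 0.922). In the HF library the same rows stood at 0.911 (0.717 to 1.14), 0.866 (0.701 to 1.06) and 0.992 (0.807 to 1.21), with intervals that hold 1. Not all rows higher with PROS1 went this way. CCDC80 stood at 1.08 (0.934 to 1.24) in HF and 1.40 (1.12 to 1.75) in LF. CMSS1 stood at 1.19 (1.09 to 1.31) in HF and 1.02 (0.929 to 1.11) in LF. Whether the libraries differ in this was not tested.

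**Figure D3:**
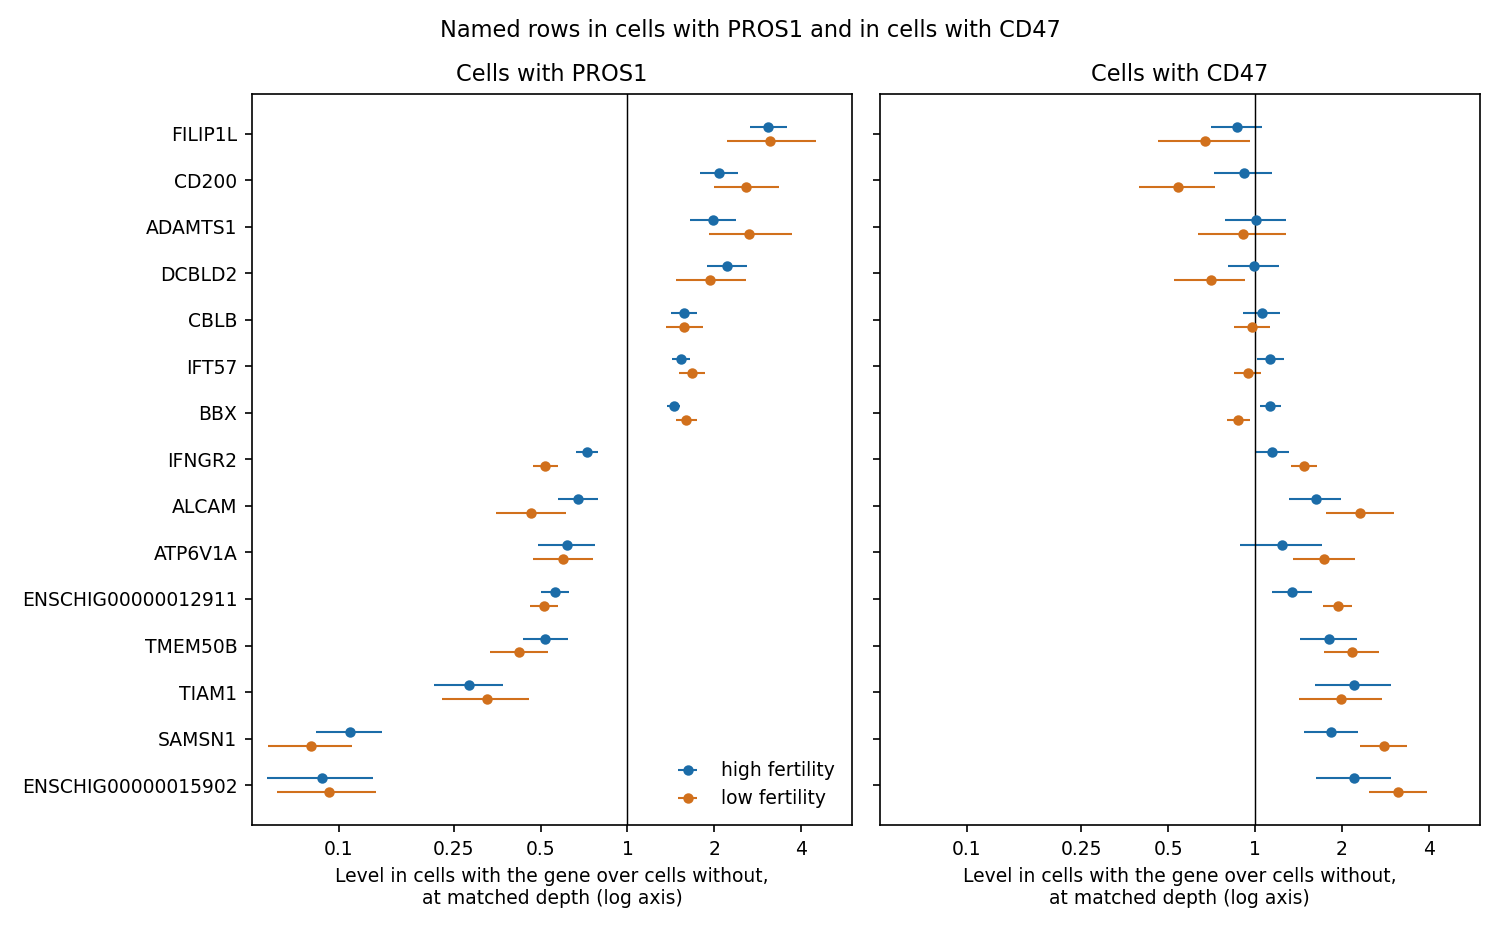
Level of named rows in cells with PROS1 (left) or CD47 (right) over the level expected at matched depth from cells without that gene (log axis), in the high (blue) and low (orange) fertility library, with 95% intervals for counting error. SAMSN1 and ENSCHIG00000015902 lie near 0.1 in PROS1 cells and between 1.84 and 3.13 in CD47 cells, while FILIP1L lies near 3 in PROS1 cells.

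The cells were also sorted by both genes, and the levels in each class are plain CPM, not matched for depth. In the HF library 4275 cells held neither gene, 2422 PROS1 only, 226 CD47 only and 183 both, with medians of 6367, 8818.5, 8624 and 9939 UMIs per cell. SAMSN1 stood at 26.9 CPM in cells with neither, 2.11 in cells with PROS1 only, 36.7 in cells with CD47 only and 3.57 in cells with both. FILIP1L ran the other way, at 14.6, 34.8, 7.75 and 33.3 CPM in the same order. In cells with both genes the levels of SAMSN1 and FILIP1L lay within counting error of those in cells with PROS1 only, while ALCAM stood at 10.6 CPM (9.40 to 11.8) in cells with PROS1 only and 19.4 CPM (14.4 to 25.7) in cells with both.

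In LF 1832 cells held neither gene, 1168 PROS1 only, 201 CD47 only and 144 both, with medians of 8978, 13096.5, 14248 and 17478 UMIs. SAMSN1 stood at 25.2, 1.35, 49.99 and 3.97 CPM in that order. Its level in cells with both genes (2.22 to 6.55) lay above that in cells with PROS1 only (0.889 to 1.96), with intervals that do not overlap. In HF it was also higher in cells with both, on 9 UMIs and with overlapping intervals (1.63 to 6.77 against 1.61 to 2.73). A difference between the libraries in this was not tested. FILIP1L stood at 8.48 CPM (5.80 to 12.0) in cells with both and 11.5 CPM (10.1 to 13.1) in cells with PROS1 only. A UMI of SAMSN1 was present in 35.3% (28.7% to 42.4%) of the cells with CD47 only and in 2.14% (1.39% to 3.14%) of those with PROS1 only; in HF these shares were 21.7% (16.5% to 27.6%) and 1.78% (1.29% to 2.38%). CD200 stood at 8.54, 20.2, 2.55 and 11.1 CPM, the lowest level again in cells with CD47 only. BBX stood at 53.8 CPM in cells with CD47 only against 116 CPM in cells with PROS1 only.

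**Figure D4:**
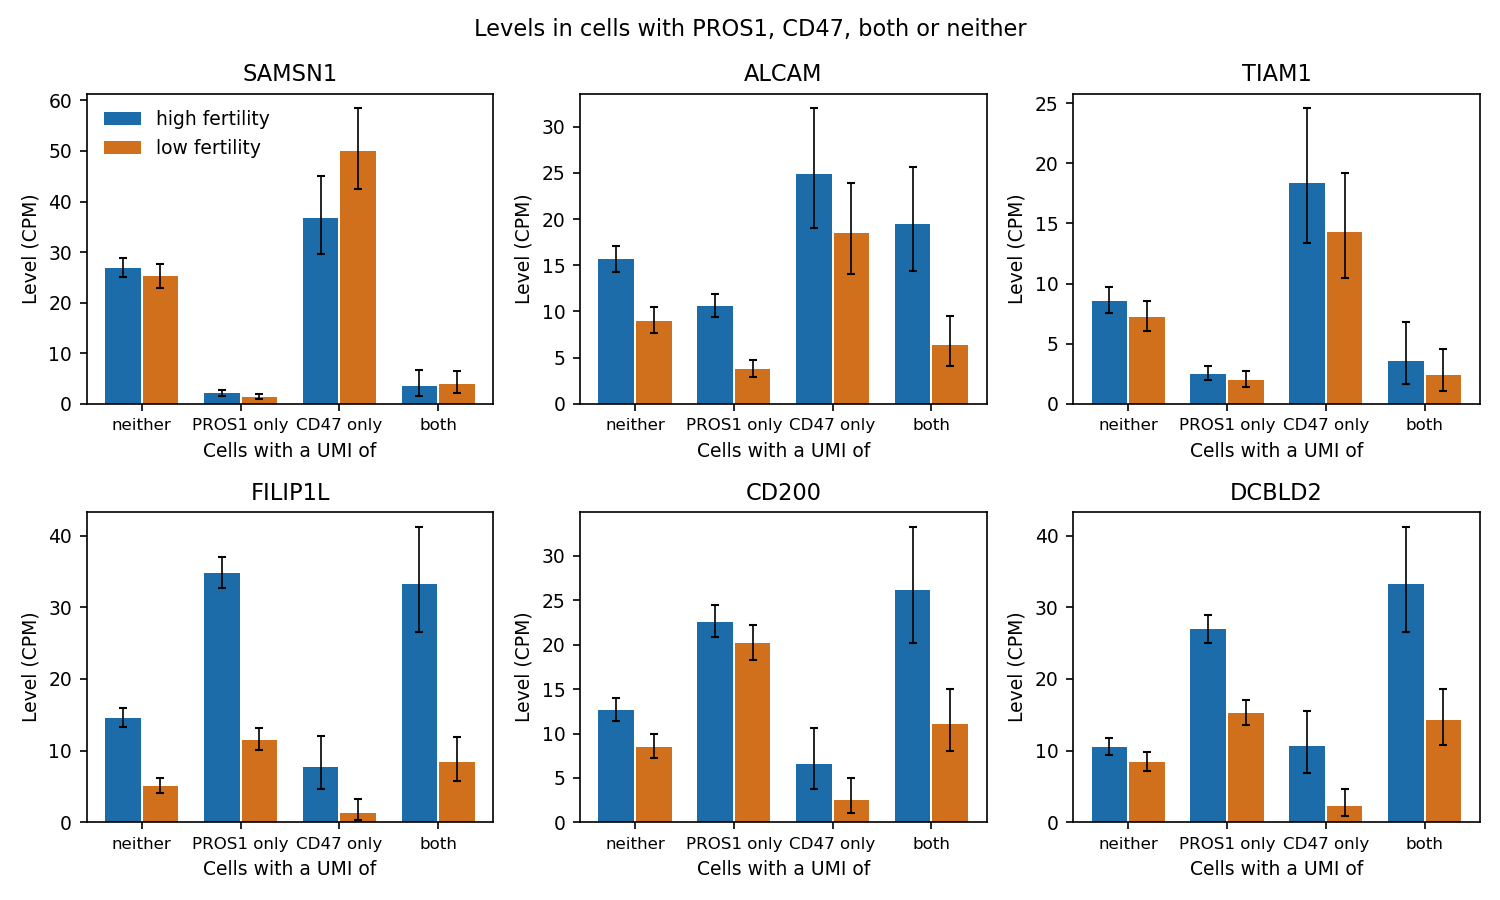
Level in CPM of 6 rows in cells with a UMI of neither gene, PROS1 only, CD47 only or both, in the high (blue) and low (orange) fertility library, with 95% Poisson intervals. SAMSN1 and TIAM1 are low wherever PROS1 is present, while FILIP1L, CD200 and DCBLD2 are lowest in cells with CD47 only or close to the level in cells with neither.

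Ratios by number of PROS1 UMIs went different ways for different rows. CD200 stood at 2.07 in HF cells with at least 1 PROS1 UMI, 2.40 with at least 2, 3.16 with at least 4 and 3.83 (2.61 to 5.67) in the 84 cells with at least 6; these sets are nested and share cells. The LF values were 2.57, 2.57, 3.20 and 4.51 (2.64 to 8.16). FILIP1L stood at 3.95 (3.29 to 4.77) with at least 2 and 4.67 (3.59 to 6.15) with at least 4 PROS1 UMIs in HF, and at 3.33 and 4.94 in LF. With at least 6 it stood at 4.43 (2.99 to 6.68) in HF and 3.38 (1.41 to 9.32) in LF, no higher than with at least 4. SAMSN1 held 2 UMIs in the 339 HF cells with at least 4 PROS1 UMIs, where 93.1 were expected, and 4 in the 207 such cells of LF, where 102.1 were expected. ALCAM, counted as lower with PROS1, stood in HF at 0.673, 0.816, 0.905 and 1.47 (1.004 to 2.13) in cells with at least 1, 2, 4 and 6 PROS1 UMIs, past 1 in the last set, and in LF at 0.464, 0.402, 0.542 and 0.357 (0.118 to 0.908). With at least 2 PROS1 UMIs required, ALCAM and IFNGR2 were no longer counted as lower in both libraries. CD47 in cells with at least 4 PROS1 UMIs stood at 0.726 (0.463 to 1.13) and 0.541 (0.342 to 0.848).

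Cells with several CD47 UMIs were few. The 51 LF cells with at least 2 CD47 UMIs held 46 SAMSN1 UMIs where 10.0 were expected, a ratio of 4.60 (3.25 to 6.39), and 28 ALCAM UMIs where 6.87 were expected. They held 1 UMI of FILIP1L where 9.72 were expected and 51 of PROS1 where 72.0 were expected, a ratio of 0.708 (0.524 to 0.938). The 19 HF cells of this kind held 49 PROS1 UMIs where 26.6 were expected, a ratio of 1.84 (1.36 to 2.45), 2 of SAMSN1 where 2.27 were expected and 14 of ALCAM where 4.75 were expected. The interval of the PROS1 ratio leaves out the uneven spread of PROS1 over cells, so with 19 cells its side of 1 is not settled. Whether the libraries differ here was not tested.

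**Figure D5:**
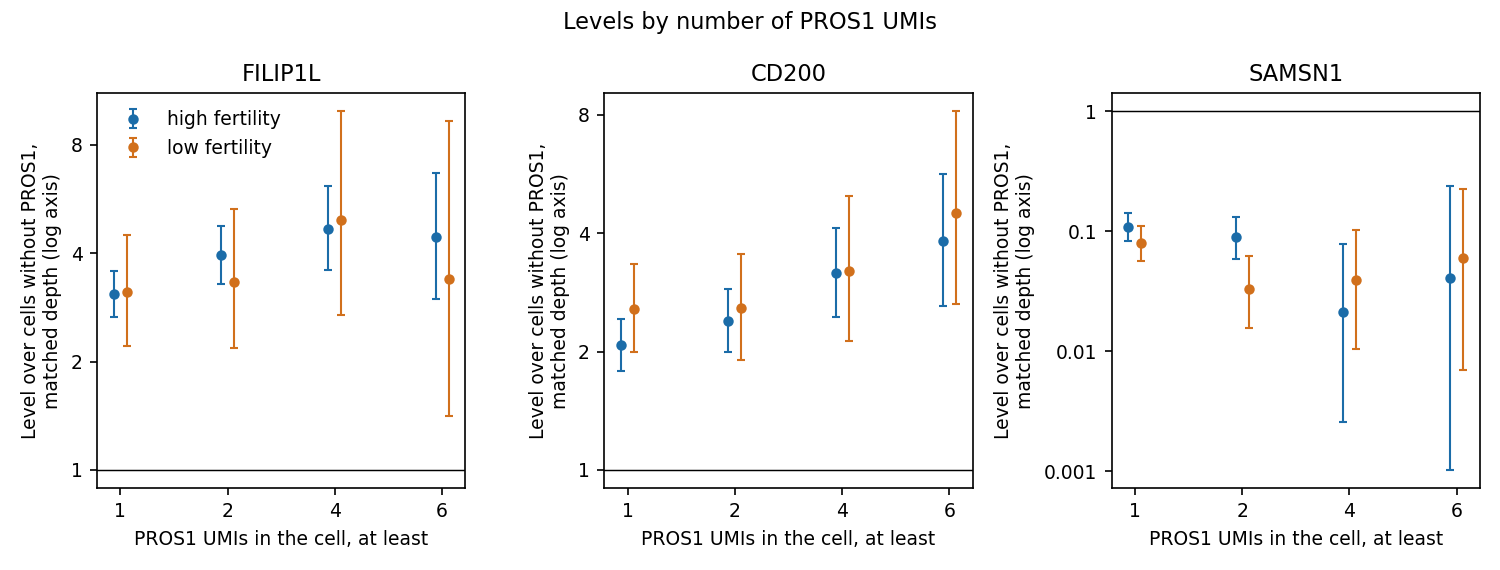
Level of FILIP1L, CD200 and SAMSN1 in cells with at least 1, 2, 4 or 6 PROS1 UMIs over the level expected at matched depth from cells without PROS1 (log axes), in the high (blue) and low (orange) fertility library, with 95% intervals. CD200 goes from 2.07 to 3.83 in the high and from 2.57 to 4.51 in the low fertility library, and SAMSN1 stays at 0.109 or lower.

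Of the leukocyte marker list, 3 of 11 genes were among the rows: SAMSN1, CD96 and CD80, while PTPRC, CD14 and the others were not analysed here. Summed and not matched for depth, the 3 stood at 2.43 CPM in PROS1 cells against 28.6 in cells without PROS1 in HF, and at 1.98 against 30.0 in LF. In CD47 cells the sum was 20.3 against 15.8 CPM in cells without CD47 in HF and 25.3 against 13.6 in LF. SAMSN1 made up nearly all of it, since CD96 held 21 UMIs in each library and CD80 18 and 11. CD96 stood at 0.822 (0.245 to 2.51) in PROS1 cells of HF and 1.13 (0.256 to 3.96) of LF, so a deficit was not detectable for it. CD80 held no UMI in PROS1 cells of HF, where the interval of its ratio reaches 0.345, and stood at 0.212 (0.00468 to 1.69) in those of LF. In CD47 cells CD96 held no UMI in either library, with intervals of its ratio that reach 3.82 in HF and 6.76 in LF. CD80 stood there at 2.05 (0.222 to 9.35) in HF and 3.89 (0.570 to 23.0) in LF, so a higher level was not detectable for either gene. The part of leukocytes in these values was not tested. UPK1B, the only surface epithelium marker among the rows, held 29 and 23 UMIs and is too low to be read.

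Other genes of the clearance pathway were sought from lists. Of 17 genes for recognition of phosphatidylserine and of 12 for the protein C and S system only PROS1 was among the rows, and of 11 for CD47 and its partners only CD47. None of 11 genes for exposure and find-me signals or of 8 for engulfment was. Of 17 cell death genes 4 were: BTG3, TIAM1, USP25 and BACH1. BTG3, an anti-proliferative gene, stood at 1.44 (1.35 to 1.54) in PROS1 cells of the HF and 1.53 (1.39 to 1.69) of the LF library, and at 1.08 (0.976 to 1.20) and 1.06 (0.948 to 1.18) in CD47 cells. BACH1 and USP25 lay below 2 CPM, with intervals that hold 1 in PROS1 cells. In CD47 cells USP25 stood at 0.585 (0.0141 to 3.68) in HF and 5.01 (1.41 to 16.9) in LF, where it held 16 UMIs in all, and BACH1 at 0.556 (0.147 to 1.49) and 1.00 (0.450 to 2.01).

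In the gene order of RefSeq assembly ARS1.2, PROS1 and CD47 lie on chromosome 1 with 70 protein-coding genes between them, and neither overlaps a protein-coding neighbour. EPHA3, an ephrin receptor gene next to PROS1 in the table, held 20 UMIs in HF and 4 in LF. IFT57, next to CD47, stood at 68.4 and 61.9 CPM and was among the rows higher with PROS1, not with its neighbour CD47.

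ENSCHIG00000012599, a row outside the naming rule and chosen after its values were seen, whose log values fall into a low and a high mode, was also used to divide the cells. At matched depth PROS1 in cells with a value of 2.5 or more stood at 1.14 (1.07 to 1.21) of that in cells below 2.5 in HF and at 1.13 (1.03 to 1.24) in LF, while CD47 stood at 1.17 (0.947 to 1.46) and 0.708 (0.568 to 0.887).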

How the data were processed

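The members, lists and rules were chosen with earlier results of these data known. The submitters' processing notes name Cell Ranger, version 2.2.0; build, annotation, cell filter and normalizing program are not stated. The authors deposited values on a natural log scale, ln(1 + 10000 × UMIs / cell total), as judged from the values: worked back with this formula, all 177610 values above 0 in 10451 cells came out whole within 0.0001. Cells were assigned by the prefix of their column name. UMIs were summed and divided by summed cell totals (CPM), with exact Poisson intervals for levels, Clopper-Pearson intervals for shares and binomial intervals for ratios. For matched depth, UMIs expected in cells with a gene were taken from cells without it in 20 depth bins of equal cell number. The interval uses the effective number of UMIs behind the expectation. It was tried on simulated Poisson counts only, without uneven spread over cells. That trial does not show how well the interval covers rows that are spread unevenly. Named rows are, for each member, the up to 8 highest and 8 lowest counted rows by the smaller of both libraries' log2 ratios in size, the table neighbours and list members; the rows shown by cell class and by UMI number were picked among these after their values were seen. A level of 0 would allow up to 0.0470 (HF) or 0.0657 CPM (LF), which is 3 UMIs. Python 3.11.15, NumPy 2.4.6 and SciPy 1.17.1 were used. The values of 1 of the named rows are not reported here. The incomplete last row was left out, and all cells were kept.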

Additional observations from a re-analysis of the deposited data

Results flagged for a closer look

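BBX and ENSCHIG00000012599 stood on opposite sides of 1 in cells with CD47 in the 2 libraries, each with counting intervals that leave out 1. BBX stood at 1.13 (1.04 to 1.23) of the matched-depth level in the high and at 0.874 (0.796 to 0.959) in the low fertility library. ENSCHIG00000012599 stood at 1.09 (1.07 to 1.104) in the high and at 0.977 (0.964 to 0.989) in the low. The difference between the libraries was not tested, and with 1 library each the intervals hold no error between animals. They also leave out the spread of a row over cells. The values of ENSCHIG00000012599 fall into a low and a high mode, and only 409 and 345 cells held CD47. On which side of 1 this row lies is therefore not settled in either library.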

How the results depend on the processing

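PROS1 stayed higher in the high and CD47 in the low fertility library in every setting run, also on the scale of the deposited log means. For CD47 the interval of the ratio high over low held 1 in some of them. It stood at 0.853 (0.707 to 1.03) without cells above 15000 UMIs and at 0.801 (0.556 to 1.18) among cells below 7500 UMIs. The PROS1 ratio left its counting interval as a mean over cells (1.24), without cells above 15000 UMIs (1.17), divided by the median ratio of abundant rows (1.17) and among cells below 7500 UMIs (1.23). The ratio of deep over shallow PROS1 was 0.860 in the high fertility library with bounds of 2500 and 20000 UMIs and 0.714 in the low with the shallowest and deepest 10% of cells. Without cells above 15000 UMIs the variance ratio of PROS1 in the high fertility library was 1.82 and that of CD47 in the low 1.04. Reduced to 5000 UMIs, cells with PROS1 made up 27.9% and 24.1%, and cells with CD47 3.45% and 4.46%, of the high and low fertility library. Co-detection was 0.761 and 0.610 against a Poisson count per cell, a setting that by its construction expects more PROS1 cells than were observed, and 1.31 (0.971 to 1.74) and 1.16 (0.530 to 2.201) below 7500 UMIs. Rows higher with PROS1 numbered 7 at 1.5-fold and 5 of 25 rows of at least 20 CPM. Rows lower with PROS1 numbered 5 without SAMSN1 cells, 2 of the rows of at least 20 CPM and 5 below 7500 UMIs. Rows higher with CD47 numbered 3 without cells above 15000 UMIs, 1 of 26 rows of at least 20 CPM and 0 below 7500 UMIs; 2 were lower with at least 2 CD47 UMIs. Fewer rows or cells enter these counts; otherwise the cause was not tested. In the high fertility library 6 ratios in CD47 cells crossed 1, all with intervals that hold 1: with at least 2 CD47 UMIs TIAM1 (0.796), SAMSN1 (0.880) and ENSCHIG00000012911 (0.612), and below 7500 UMIs TMEM50B (0.864), ALCAM (0.668) and ENSCHIG00000012911 (0.998). Added after seeing the data were the cells below 7500 UMIs for level ratios and counts of rows, the cells without SAMSN1 for level ratios and spread, and the cells with unshared barcodes. No paired analysis was possible because only 1 library stands in each group.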
